A study of Mus musculus with 6 samples.

Results

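The E2F and RB family was followed by gene symbol in the count table, as 10 genes of the 53599 listed: the activator E2Fs E2f1, E2f2 and E2f3, the repressor E2Fs E2f4, E2f5 and E2f6, the atypical E2Fs E2f7 and E2f8, and the pocket protein genes Rb1 and Rbl1. All 10 were found, and 9 passed the expression filter. E2f7 did not. RNA-Seq was performed on hepatocytes harvested 4 days after AAV8 injection, with 3 libraries from mice that received the Sox4 vector and 3 from mice that received empty vector (EV). The Sox4 vector expressed HA-tagged mouse Sox4 together with Cre through a P2A peptide, and EV expressed Cre alone. Both groups therefore received Cre. The TBG promoter, a hepatocyte promoter, drove each vector. The labels give the genotype as WT for EV and as Sox4 for the animals given the Sox4 vector. For this vector the methods describe male mice aged 4 to 8 weeks, homozygous for Rosa-LSL-Cas9-EGFP on C57BL/6J, in which Cre also switches on Cas9 and EGFP. Cells were freed with liberase and enriched on Percoll without sorting, so that cells which did not take up the vector may remain in both groups.

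E2F factors bind DNA and govern the genes needed to enter and pass through the cell cycle. E2F1 to E2F6 bind as dimers with a DP partner, encoded by Tfdp1 and Tfdp2. In resting cells the pocket proteins RB, p107 (Rbl1) and p130 (Rbl2) hold E2Fs in check, and cyclin-dependent kinases release them by phosphorylating the pocket proteins. E2F7 and E2F8 bind DNA without a DP partner or a pocket protein and act as repressors. In liver they are known for promoting the polyploidy of hepatocytes, which E2F1 opposes.

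E2F binding sequences stand in the promoters of several of these genes themselves, and they are shown because E2F factors are known to regulate their own family. RefSeq promoter windows of 300 bases, 250 before and 50 after the start, were held for 7 of the 10 genes (not for E2f4, E2f5 and Rb1) and for Rbl2, Tfdp1 and Tfdp2. Each window was searched on both strands for 4 letter strings, TTTCCCGC, TTTCGCGC, TTTGCCGC and TTTGGCGC, and a window counted once however many matches, overlapping or not, it held. A match was found in 2.26% of the 32851 mouse windows. In the family it was found in the first window of E2f2 and E2f3 and in the windows of E2f7 and Rbl1, and both windows of the partner gene Tfdp1 held 1 and the same match. The matches, in capitals, with up to 11 bases on either side, read on the strand of the gene (build GRCm38.p6):
E2f2, chr4:136172302-136172323, plus strand, bases 40 to 47 after the start: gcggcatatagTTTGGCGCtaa
E2f3, chr13:29986056-29986085, minus strand, bases -11 to -4: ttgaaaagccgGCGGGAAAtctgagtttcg
E2f7, chr10:110745230-110745259, plus strand, bases -198 to -191: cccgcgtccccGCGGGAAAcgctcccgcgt
Rbl1, chr2:157204534-157204563, minus strand, bases -18 to -11: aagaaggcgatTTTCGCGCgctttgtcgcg
Tfdp1, chr8:13338697-13338726, plus strand, bases -43 to -36 of the first window: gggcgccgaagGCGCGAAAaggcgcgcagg
No match was found in the windows of E2f1, E2f6, E2f8, Rbl2 and Tfdp2, which says only that these letters are not there. E2f3 had 2 windows, and counts per gene do not separate transcripts from its 2 starts. The stretch around the E2f3 start of the first window, from 200 bases before it to 25 after, is given whole, since E2f3 is the member with the most counts among those that changed (chr13:29986039-29986263, minus strand, the E2F match in capitals).
E2f3: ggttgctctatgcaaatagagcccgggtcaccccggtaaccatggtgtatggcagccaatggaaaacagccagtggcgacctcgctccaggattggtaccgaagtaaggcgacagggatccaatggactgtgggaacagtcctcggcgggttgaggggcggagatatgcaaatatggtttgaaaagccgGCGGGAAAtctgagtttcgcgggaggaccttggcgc
This stretch also holds TTTGAA, the core of the cell cycle homology region (CHR), at bases -23 to -18, and so does the window of E2f8 on the other strand at -20 to -15, the second window of E2f2 at -31 to -26 and that of Rbl2 on the other strand at -201 to -196. TTTGAA occurs in 17.9% of all windows. The letters AACAAAG, searched as a SOX sequence, occur in 5.85% of all windows and in the windows of Tfdp2 alone among these genes.

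Depth and scaling were examined before the family. Total counts ranged from 15090629 to 16249382 in EV and from 16679195 to 16964860 in Sox4 libraries, and no pair of libraries of a group agreed within counting noise. Sox4 had 2, 0 and 3 counts in the 3 EV libraries and 21697, 15097 and 11816 in the 3 Sox4 libraries, so that the libraries went with their labels. Levels are CPM (counts relative to library size), with library sizes scaled by the trimmed mean method of edgeR (TMM). All tests are the edgeR quasi-likelihood test with Benjamini-Hochberg adjustment over the 12691 genes that passed the expression filter. The TMM-scaled sizes of the Sox4 libraries were 1.48 times those of EV, against 1.07 times for total counts. Over all tested genes the log2 fold change had a median of 0.04 under TMM and of 0.51 under library size alone, and changes are given on the TMM scale. Hepatocyte markers were present in every library, and their sum was 122262 to 144055 CPM in EV against 85308 to 99218 CPM in Sox4, where 4 of 7 were lower, beside 26.0% of all tested genes. In bulk RNA, more cells of a type and more RNA per cell cannot be told apart.

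Of the 9 tested genes of the family, E2f2 and E2f3 were higher in the Sox4 libraries and none was lower. Among all tested genes 55.1% changed, 29.0% up and 26.0% down. The 2 calls among 9 were both activators, and their share was not tested against this background. The other activator, E2f1, and the repressors E2f4 and E2f6 had log2 fold changes below 0 with TMM and above 0 with library size alone, and none of the 3 passed with TMM. The groups did not overlap for E2f2 and E2f3 only, whereas they did not overlap for 63.0% of all tested genes. The plot of levels by library shows each gene.

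**Figure D1:**
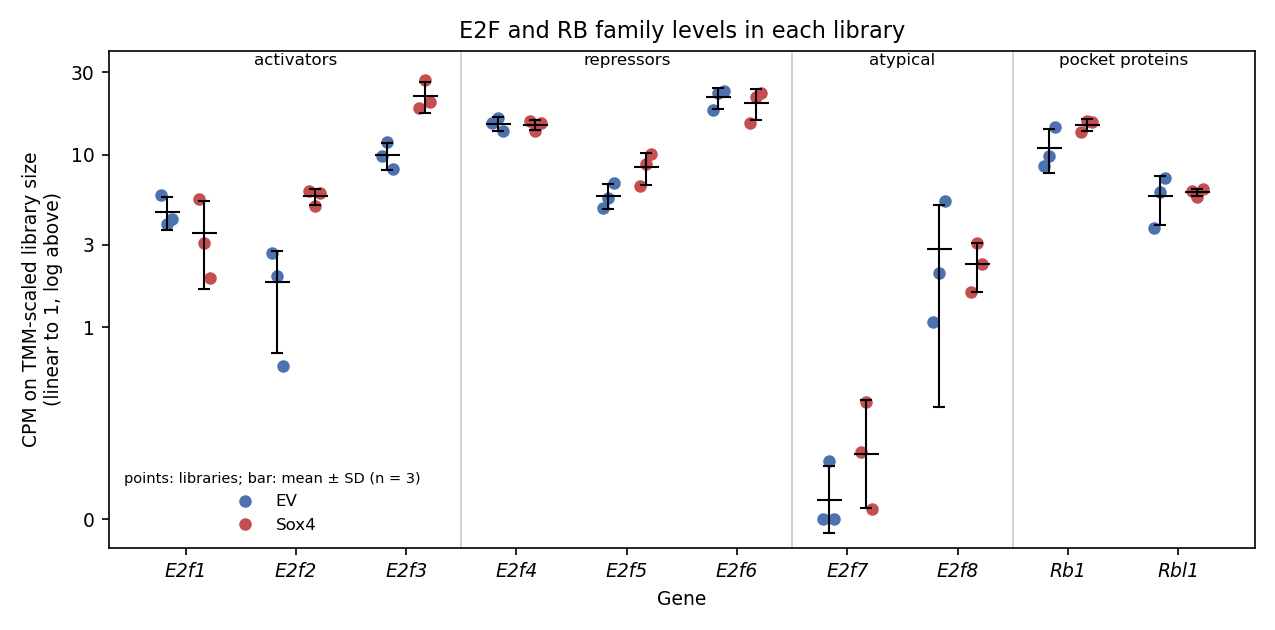
CPM on TMM-scaled library sizes (vertical axis, linear up to 1 and logarithmic above) of the 10 genes in the 3 EV (blue) and 3 Sox4 (red) libraries, with the mean and SD of each group as black bars. E2f2 and E2f3 are the genes whose red points all lie above the blue ones.

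E2f3, an activator that opens the way from G1 into S phase, had 127, 155 and 113 counts in the 3 EV libraries and 374, 531 and 398 in the 3 Sox4 libraries. Every Sox4 library lay above every EV library. Its level rose from 9.92 ± 1.79 to 22.0 ± 4.48 CPM (SD, n = 3), a log2 fold change of 1.15 (adjusted p = 7.41e-04, SE 0.22) or 2.22-fold. E2f2, its close relative, had 35, 26 and 11 counts in EV and 123, 99 and 118 in Sox4. Again the groups were apart, and the EV libraries were the more scattered. Its level rose from 1.82 ± 0.958 to 5.73 ± 0.594 CPM (SD, n = 3), a log2 fold change of 1.66 (adjusted p = 0.00391, SE 0.49) or 3.15-fold. Both calls were kept under each of the 13 alternatives run, with values of 0.98 to 1.28 for E2f3 and 1.28 to 2.03 for E2f2 when a library was left out.

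E2f1, the activator that also drives apoptosis genes, went apart from them. It had 76, 52 and 58 counts in EV and 111, 60 and 38 in Sox4. Sox4 1 lay within the EV range on the CPM scale, at 5.56 CPM, whereas Sox4 2 and Sox4 3 lay below it, at 3.06 and 1.93 CPM. The mean was 4.67 ± 1.03 CPM in EV and 3.52 ± 1.86 CPM in Sox4 (SD, n = 3), a log2 fold change of -0.41 that did not pass (adjusted p = 0.382, SE 0.46) and was 0.060 with library size alone. Without Sox4 1 it passed as lower (-0.91, adjusted p = 0.0398).

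Since ratios of counts within a library do not depend on scaling, pairs of genes were also set against each other, chosen after the values were seen. The E2f3 to E2f1 ratio was 1.67, 2.98 and 1.95 in the 3 EV libraries and 3.37, 8.85 and 10.5 in the 3 Sox4 libraries. The E2f2 to E2f1 ratio was 0.461, 0.50 and 0.190 in EV and 1.11, 1.65 and 3.11 in Sox4. Each ratio was higher in every Sox4 library than in any EV library, and the ratio to E2f1 did not overlap between groups for 32.2% of the other tested genes. E2f3 was also set against E2f4, the steadiest member by its SE, and the ratio went from 0.641, 0.721 and 0.601 in EV to 1.20, 1.97 and 1.32 in Sox4, so that E2f3 counts passed E2f4 counts in each Sox4 library and in no EV library. The share of all other tested genes whose ratio to E2f4 did not overlap between groups was 58.9%. The E2f3 to E2f6 ratio was 0.543, 0.515 and 0.350 in EV and 1.22, 1.26 and 0.886 in Sox4, without overlap, as for 48.9% of the other tested genes. Among the repressors the groups overlapped, with E2f5 to E2f4 ratios of 0.323 to 0.50 in EV against 0.421 to 0.659 in Sox4 and E2f6 to E2f4 ratios of 1.18 to 1.72 against 0.984 to 1.56.

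The repressor E2Fs, which with pocket proteins keep cell cycle genes off in resting cells, gave no call. E2f4 had 198, 215 and 188 counts in EV and 311, 270 and 302 in Sox4. The raw counts were higher in Sox4 and the scaled levels overlapped, at 15.1 ± 1.35 and 14.9 ± 0.966 CPM (SD, n = 3). Its log2 fold change was -0.02 (adjusted p = 0.926, SE 0.09), against 0.45 (adjusted p = 0.0173) with library size alone. E2f6, which represses through polycomb and not through pocket proteins, had 234, 301 and 323 counts in EV and 306, 422 and 449 in Sox4, with overlapping levels of 21.4 ± 2.97 and 19.9 ± 3.98 CPM (SD, n = 3). Its log2 fold change was -0.11 (adjusted p = 0.626, SE 0.21) and 0.36 with library size alone, which did not pass either. E2f5 had 64, 74 and 94 counts in EV and 131, 173 and 199 in Sox4. In CPM, EV 3 at 6.83 lay above Sox4 1 at 6.57, and the other libraries were ordered by group. Its log2 fold change was 0.55 (adjusted p = 0.0609, SE 0.22), just outside the threshold, and it passed as higher without Sox4 1 (0.70, adjusted p = 0.0179) and with library size alone (1.02, adjusted p = 0.00285).

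Of the atypical E2Fs, E2f7 was near the floor and E2f8 was scattered in the controls. E2f7 had 0, 4 and 0 counts in EV and 7, 12 and 1 in Sox4. A count of 3 corresponds to 0.218 to 0.231 CPM in EV libraries and to 0.150 to 0.153 CPM in Sox4 libraries, counting error only, so that only a large change of E2f7 could be detected at this depth. Tested with no filter, its log2 fold change was 1.72 (adjusted p = 0.245). E2f8 had 14, 27 and 74 counts in EV and 32, 60 and 46 in Sox4. EV 3 held the highest level of all 6 libraries, 5.37 CPM, and EV 1 the lowest, 1.08 CPM, with the 3 Sox4 libraries between them. Its log2 fold change was -0.29 (adjusted p = 0.671, SE 0.69), with 0.18 under library size alone and 0.56 without EV 3, neither of which passed. In GENCODE M21, 610 exonic bases of E2f8 are overlapped on the other strand by Gm2788, and the strand setting of the counts was not stated.

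The pocket proteins of the family did not pass. Rb1, the retinoblastoma gene, had 111, 129 and 199 counts in EV and 271, 306 and 307 in Sox4, with EV 3, at 14.5 CPM, inside the Sox4 range. Its log2 fold change was 0.45 (adjusted p = 0.0842, SE 0.23), and it passed as higher without EV 3 (0.68, adjusted p = 0.0120) and with library size alone (0.92, adjusted p = 0.00285). Exons of Rb1 are overlapped on the other strand by Lpar6 and Rcbtb2 over 896 bases. Rbl1, the gene of p107 and a known E2F target, had 49, 80 and 101 counts in EV and 123, 112 and 124 in Sox4. The Sox4 libraries agreed closely, at 6.06 ± 0.297 CPM, and lay within the EV spread of 5.73 ± 1.80 CPM (SD, n = 3; log2 fold change 0.08, SE 0.28, adjusted p = 0.813).

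Partners outside the 10 genes were read from the same fit, and each of the 3 passed, beside 55.1% of all tested genes. Rbl2, the gene of p130, the pocket protein that marks resting cells, had 543, 485 and 522 counts in EV and 491, 533 and 565 in Sox4. Raw counts overlapped and scaled levels did not, and Rbl2 fell from 38.9 ± 2.64 to 26.8 ± 2.04 CPM (SD, n = 3; log2 fold change -0.53, SE 0.08, adjusted p = 0.00328). With library size alone it was at -0.07 and did not pass. Gm45464 and Aktip overlap 1585 of its exonic bases on the other strand. Tfdp1, the gene of DP1, had 286, 323 and 338 counts in EV and 618, 647 and 598 in Sox4, and rose (log2 fold change 0.41, SE 0.06, adjusted p = 0.0128). It shares 11.5% of its 75-base words with Gm7390, and missed the threshold without EV 1 (0.34) or Sox4 2 (0.37). Tfdp2 had 241, 233 and 218 counts in EV and 298, 236 and 212 in Sox4, and was lower (-0.46, SE 0.15, adjusted p = 0.0331), a call that was lost with library size alone (0.0048), with no filter (-0.42) and without EV 1, EV 2, Sox4 2 or Sox4 3 (-0.47 to -0.36). The Rb1 to Rbl2 count ratio, which does not depend on scaling, was 0.204, 0.266 and 0.381 in EV and 0.552, 0.574 and 0.543 in Sox4. The Rbl1 to Rbl2 ratio was 0.0902, 0.165 and 0.193 in EV and 0.251, 0.210 and 0.219 in Sox4. Neither ratio overlapped between the groups, which also held for the ratio of 68.5% of the other tested genes to Rbl2.

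**Figure D2:**
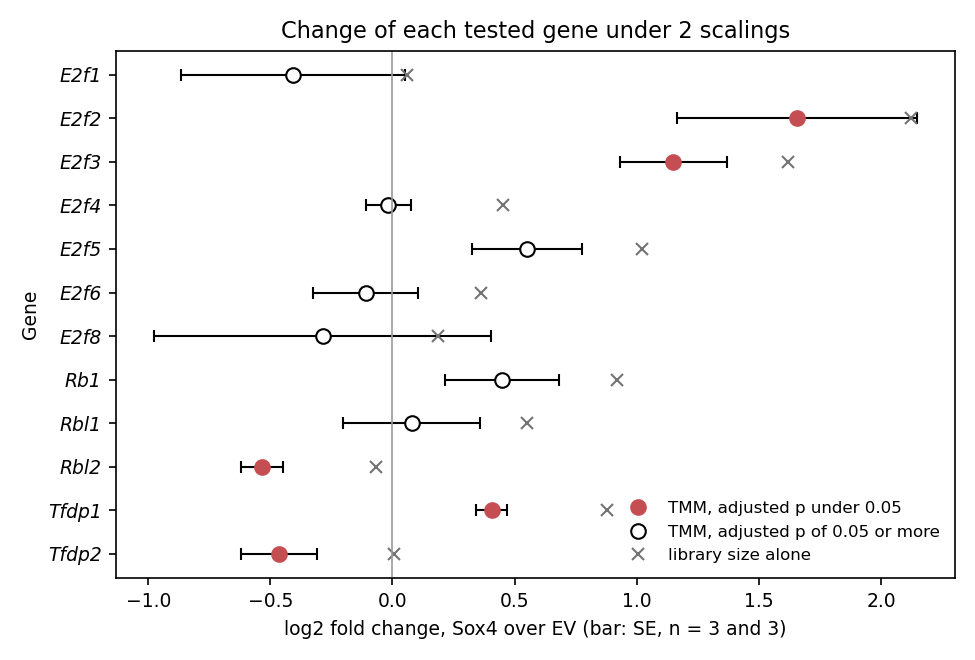
Log2 fold change of Sox4 over EV (horizontal axis) for the 9 tested genes of the family and 3 partners, with TMM (circles, red when the adjusted p was under 0.05, bars for the SE, n = 3 and 3) and with library size alone (crosses). E2f2 and E2f3 lie above 1 with either scaling, whereas E2f1, E2f4, E2f6, E2f8 and Tfdp2 lie on opposite sides of 0.

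Levels were then compared between genes as CPM per kb of annotated exon (GENCODE M21 on GRCm38, whereas the reads were aligned to GRCm39), which allows the family to be ordered within a group. In EV, E2f4 was the most abundant at 6.15 ± 0.549 CPM per kb (SD, n = 3), followed by E2f6 at 3.79 ± 0.525 and E2f5 at 3.25 ± 0.538. The spreads of E2f6 and E2f5 overlapped. E2f3 at 1.83 ± 0.329, Rb1 at 1.82 ± 0.517 and E2f1 at 1.48 ± 0.328 CPM per kb formed a middle group that was not separated by its spread. Rbl1 (0.956 ± 0.301), E2f8 (0.521 ± 0.414) and E2f2 (0.373 ± 0.196) were lower, and neighbours among them were not separated either. Rbl1 was also not separated from E2f1. E2f7 was at 0.0112 ± 0.0195 CPM per kb. In Sox4 libraries E2f4 still had the highest mean at 6.07 ± 0.394, and E2f5 (4.77 ± 1.001), E2f3 (4.05 ± 0.826) and E2f6 (3.51 ± 0.703) overlapped next. The spreads of E2f4 and E2f5 met. Rb1 followed at 2.48 ± 0.193. E2f2 (1.17 ± 0.122), E2f1 (1.12 ± 0.590) and Rbl1 (1.01 ± 0.0495) were not separated, and E2f8 (0.429 ± 0.134) and E2f7 (0.0375 ± 0.0312) came last, with E2f8 not separated from E2f1. The place of E2f6 depended on the length used. Per kb of the longest transcript E2f6 was at 7.11 ± 0.985 in EV and 6.59 ± 1.32 in Sox4, not separated from E2f4 (7.57 ± 0.675 and 7.47 ± 0.485). Its mean lay above E2f5 (3.26 ± 0.539 and 4.78 ± 1.003) and E2f3 (1.95 ± 0.350 and 4.32 ± 0.879), but in Sox4 the spreads of E2f6 and E2f5 met.

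Taken per length, repressor transcripts formed 73.4%, 76.6% and 77.2% of all E2F transcripts in the 3 EV libraries and 65.2%, 65.3% and 72.7% in the 3 Sox4 libraries. Activators formed 25.4%, 21.1% and 17.2% in EV and 33.1%, 31.8% and 25.3% in Sox4. The repressor share did not overlap between groups, but only narrowly, with EV 1 at 73.4% and Sox4 3 at 72.7%. The activator share overlapped narrowly, since EV 1 lay just above Sox4 3. Atypical members formed 1.20% to 5.63% in EV and 1.71% to 2.87% in Sox4. These shares are independent of library scaling but not of gene length, and are given as a description.

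**Figure D3:**
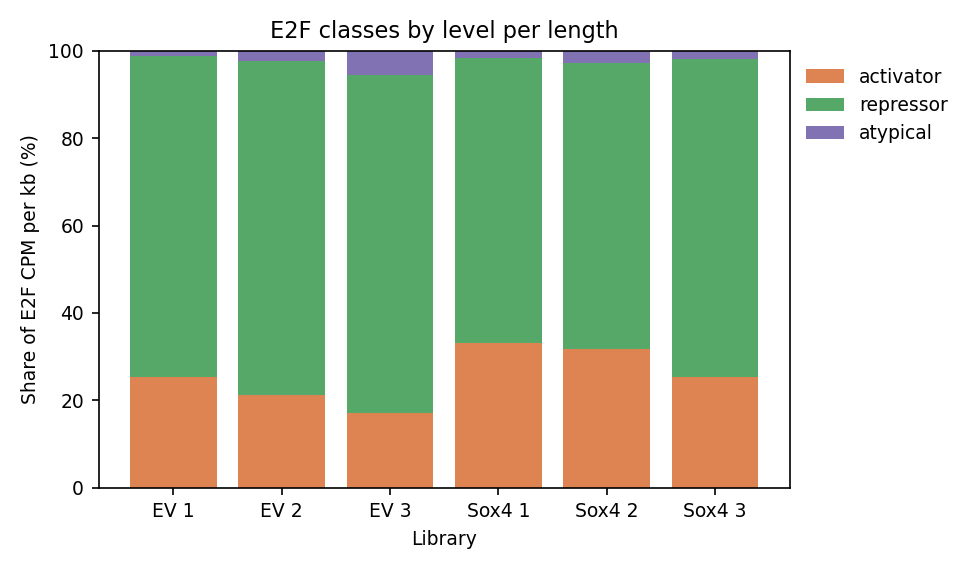
Share of summed E2F CPM per kb (vertical axis, percent) taken by activators (E2f1 to E2f3, bottom), repressors (E2f4 to E2f6, middle) and atypical members (E2f7 and E2f8, top) in each library. Repressors take 73.4% to 77.2% in EV and 65.2% to 72.7% in Sox4.

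Genes known to act with or downstream of the family were described next. These lists, like the family, were chosen with earlier results of these data known, and their counts stand beside 29.0% higher and 55.1% called in all among tested genes. Of 32 G1/S genes known as E2F targets, 31 were tested, of which 24 were higher, 1 was lower and 6 did not pass, with a median log2 fold change of 1.90 against 0.04 for all tested genes. Uhrf1, which recruits the maintenance DNA methyltransferase, had 2, 5 and 0 counts in EV and 189, 138 and 33 in Sox4 (log2 fold change 5.05, SE 0.95, adjusted p = 0.00197). The fitted value of Uhrf1 rests on EV counts near the floor. Mcm5, a subunit of the replicative helicase, rose by 3.53 on the log2 scale (SE 0.28). Gins2, another part of that helicase, was at least 10.03-fold higher, although 2758 of its 4097 exonic bases are overlapped by Gse1. Mcm2 rose from 1.95 ± 0.101 to 12.01 ± 2.07 CPM and Ezh2, the polycomb methyltransferase, from 5.13 ± 1.57 to 32.0 ± 1.02 CPM (SD, n = 3). The exception, named after its value was seen, was Mcm10, which had 484, 750 and 1095 counts in EV and 509, 385 and 239 in Sox4 and fell by 1.60 on the log2 scale (adjusted p = 0.00722, SE 0.44), the opposite direction to Mcm2 to Mcm7.

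Genes of G2 and M phase, which the DREAM and MYB-MuvB complexes control through the CHR, were higher without exception among those tested. Of 21 genes, 20 were tested and each of the 20 was higher, with a median log2 fold change of 4.11, or 3.63 with 6 genes at their bound. The expression filter admits a gene through either group, and many of the 20, such as Mki67 and Ccnb1, entered through the Sox4 libraries alone. Genes admitted in that way could hardly be called lower, so their direction was largely set by the filter. The same holds for G1/S genes near the floor in EV, such as Uhrf1 and Gins2. Mki67, a marker of cycling cells, had 2, 0 and 0 counts in EV and 276, 302 and 252 in Sox4, at least 62.1-fold higher. Ccnb1 (at least 24.7-fold), Ccnb2 (at least 31.7-fold) and Plk1 (at least 16.2-fold), which drive entry into mitosis, were also at the floor of 3 counts in every EV library. Ccnb1 shares 18.9% of its 75-base words with other transcripts, mainly Ccnb1-ps. Cdc25c did not pass the filter, with 18, 17 and 2 counts in Sox4 and none in EV, and was higher when tested with no filter (adjusted p = 9.79e-05). RefSeq windows were held for 26 of the 32 G1/S genes (30 windows) and for 16 of the 21 G2/M genes (16 windows). The 4 E2F strings were found in 13 of the 30 G1/S windows (43.3%) and 1 of the 16 G2/M windows (6.25%), and TTTGAA in 3 of 30 (10%) and 11 of 16 (68.8%), against 2.26% and 17.9% of all windows.

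The machinery between these genes and the family was mixed. Of the MuvB, MYB and FOXM1 list, 6 of 8 were tested and 4 were higher. Mybl1 (A-Myb) had 46, 63 and 68 counts in EV and 684, 491 and 901 in Sox4 and rose by 2.98 on the log2 scale (SE 0.29). Foxm1 had 0, 0 and 4 counts in EV and 58, 82 and 46 in Sox4 (4.87, SE 0.63), a fitted value that rests on EV counts near the floor. Lin9 (1.58) and Rbbp4 (0.56) were higher, whereas Lin37 (0.21) and Lin52 (-0.20, or 0.27 with library size alone) did not pass. Mybl2 (B-Myb), usually the MYB member of dividing cells, had 8 counts or fewer in every library and did not pass the filter.

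Of 8 G1 cyclins and kinases, the enzymes that phosphorylate pocket proteins, 7 were higher and none was lower, and 5 or 6 passed when a library was left out. Ccnd1 (3.22, SE 0.62), Cdk4 (2.68, SE 0.16) and Ccne1 (2.02, SE 0.42) rose most on the log2 scale, and Ccne2 (0.64, SE 0.26) did not pass. Exons of Ccnd1 and Cdk4 are overlapped on the other strand by LTO1 and Tspan31. Of 7 CDK inhibitors 5 were tested, and they moved in both directions. Cdkn1c (p57) went from 4, 14 and 4 counts in EV to 686, 530 and 809 in Sox4 (5.93, SE 0.53), and Cdkn1a (p21) rose from 120 ± 15.2 to 344 ± 104.7 CPM (SD, n = 3; 1.51, SE 0.26). Cdkn2c (p18) fell by 0.996 on the log2 scale (adjusted p = 0.00436, SE 0.15), which did not pass with library size alone (-0.53). Cdkn1b (-0.19) and Cdkn2d (-0.74) did not pass, and Cdkn2a and Cdkn2b had at most 6 counts in a library.

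**Figure D4:**
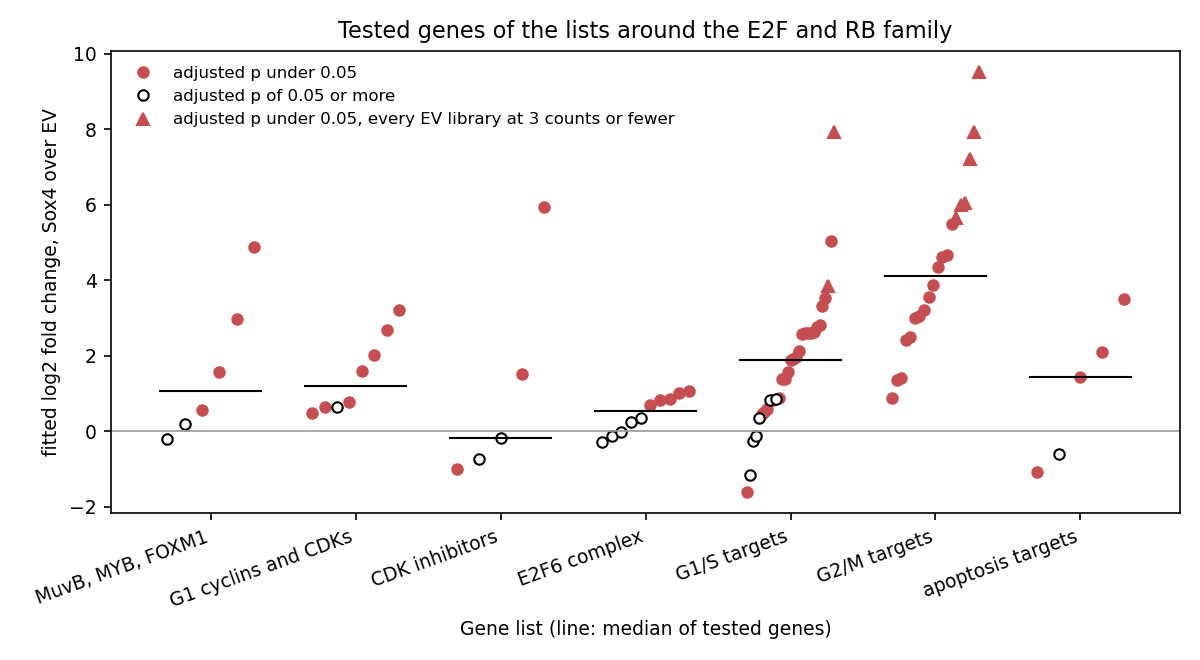
Fitted log2 fold change of Sox4 over EV (vertical axis) for every tested gene of 7 lists (red when the adjusted p was under 0.05, triangles where every EV library had 3 counts or fewer and the fitted value is no bound), with the median of each list as a line. The G2/M targets all lie above 0, and the CDK inhibitors lie on both sides.

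E2F6 acts in a polycomb complex, of whose 10 listed genes 5 were higher, 5 did not pass and none was lower, against 55.1% of all tested genes called. Rybp (1.07), Cbx3 (1.03), Rnf2 (0.86) and Mga (0.83) had the largest log2 fold changes. Germline genes that this complex keeps silent were at or near 0. Of 8 listed, 3 (Tuba3a, Mael and Taf7l) had no count in any library, and the most was 8 counts, of Stag3, in Sox4 1 and Sox4 3. None passed the filter. Tested with no filter, Stag3, a meiotic cohesin subunit with no count in EV, passed as higher (adjusted p = 0.0144), and the other 4 with any count did not. A library of no counts allows up to 0.231 CPM. Among apoptosis genes known as targets of E2F1, which were called in both directions, Bcl2l11 (3.52) and Apaf1 (2.11) rose on the log2 scale, also with library size alone, and Bbc3 (-0.60) did not pass.

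Markers of other liver cells were read beside these results, since enriched hepatocytes hold some. Their calls stand beside 29.0% higher and 26.0% lower among all tested genes. The 6 Kupffer cell markers summed to 7.40 to 18.7 CPM in EV against 18.3 to 48.5 CPM in Sox4, and 2 of 5 tested (Cd5l and Marco) were higher. The 5 endothelial markers summed to 12.2 to 18.5 CPM in EV against 10.02 to 22.1 CPM in Sox4, with Stab2 lower and Clec4g and Kdr higher. The 5 stellate markers summed to 8.32 to 44.4 and 76.2 to 137 CPM, mostly from Reln. The 6 cholangiocyte markers summed to 10.02 to 21.9 and 48.5 to 59.0 CPM, mostly from Sox9 in EV and from Spp1 in Sox4. Of 3 tested, 2 (Epcam and Spp1) were higher. Krt19 and Krt7 had no count in EV and at most 9 in Sox4. With no filter Krt19 passed as higher (adjusted p = 0.0111) and Krt7 did not. The 6 leukocyte markers summed to at most 3.93 CPM, with Ms4a1 at 0 in every library. The erythroid markers summed to 93.0 to 126 CPM in EV against 4.97 to 15.5 CPM in Sox4, mostly from Alas2, which fell by 3.45 on the log2 scale. The globin genes of that list went the other way. Hbb-bs had 3, 0 and 5 counts in EV and 13, 22 and 9 in Sox4, and Hba-a1 had 2, 2 and 2 against 4, 11 and 8. Both failed the filter, and without it Hbb-bs passed as higher (adjusted p = 0.0475) and Hba-a1 did not. The part of such cells in the levels of the family was not tested.

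The genes outside all lists with the most similar profile over the 6 libraries, by root mean square difference of centred log2 CPM among 10126 genes, were Nek2 (0.0933) and Heatr5b (0.112) for E2f3 and Smad6 (0.134) and Pde4b (0.185) for E2f2. These are given as a description.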

How the data were processed

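Per the labels, the authors aligned reads to GRCm39 with STAR 2.7.10b (the study's reporting summary names another minor release) and counted them per gene symbol with featureCounts 2.0.1. The deposited values used here are these raw counts. The annotation release and the settings for strand and multiply mapped reads are not given in the sources used here. The authors also deposited counts divided by DESeq2 size factors, a signal that was not used. Groups and replicate numbers came from the sample titles.

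In R 4.3.3, genes were kept by filterByExpr of edgeR 4.0.16 (minimum count 10, minimum total 15), scaled by TMM and compared by the quasi-likelihood test (robust, no covariate), with an adjusted p under 0.05 as threshold. The SE is that of the difference in mean log2 CPM (prior count 2). A count of 3 was the floor. Where every EV library was at or under it, folds are lower bounds against the mean EV floor. The steps were tested on simulated data. That replicates are separate animals is taken from the methods. Alternatives used DESeq2 1.42.0, limma-voom (limma 3.58.1), other scaling or filters, a replicate block, and each library left out.

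Exon lengths, overlaps and shared words came from GENCODE M21 (GRCm38). Named genes were the 10 genes and their partners, DREAM, G1 kinase and inhibitor lists, the 4 largest called changes with a mean count of at least 20 in each other list, and Mki67, Ezh2 and Mcm2. The genes and lists were chosen with earlier results of these data known. Some genes that this rule names are not reported here, and Lin54 was not analysed here.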

Additional observations from a re-analysis of the deposited data

How the results depend on the processing

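Of 155 log2 fold changes of the tested genes and partners under 13 alternatives, 126 kept their direction and side of the threshold, 9 gained the threshold, 8 lost it and 12 changed sign. The changes of sign were, with library size alone, E2f1 at 0.060, E2f4 at 0.45, E2f6 at 0.36, E2f8 at 0.18 and Tfdp2 at 0.0048, where the median of all genes moved to 0.51. For E2f4 the value was also 0.024 without the filter, and 0.010 among genes whose mean count was 50 or more. Leaving out a library gave ranges of -0.10 to 0.038 for E2f4, -0.24 to 0.043 for E2f6, -0.69 to 0.56 for E2f8 and -0.16 to 0.28 for Rbl1. The cause was not tested.

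The number of genes past the threshold was 6990 and lay between 5937 and 8092, of which 6468 were higher with library size alone (79.9%, against 52.7% with TMM). In the family it was 2, with 5 under library size alone, 4 with no filter, 4 with the replicate block and, leaving out each library, 2 to 4 (4 without Sox4 1). The partners past the threshold were 1 with library size alone and, leaving out each library, 1 to 3 (1 without EV 1 or without Sox4 2). The E2F6 complex list gave 8 in place of 5 with library size alone, and the G2/M list 10 in place of 20 with a mean count of at least 50, since fewer of its genes were tested. With the longest transcript as length, repressors formed 78.8% of E2F transcripts in EV in place of 75.7%, and 71.4% in Sox4 in place of 67.7%. The groups still did not overlap, by a narrow margin, with EV 1 at 77.0% and Sox4 3 at 76.1%.

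Deviations of same-numbered libraries correlated at 0.27, -0.09 and 0.13. The labels give only the number, and whether these libraries shared a batch was not tested. With the replicate block E2f5 (0.54, adjusted p = 0.0334) and Rb1 (0.47, adjusted p = 0.0338) passed as higher. Depth limits E2f7, Mybl2, Cdkn2a, Cdkn2b and the germline genes, which did not pass the filter. With no filter Stag3 passed (adjusted p = 0.0144) and the others that had counts did not.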
